A study of Mus musculus with 6 samples.

Results

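Tcf7l1, Tcf7l2, Lef1, Tle1, Tle2, Tle3, Ctnnb1, Axin2 and Gsk3b carry the end of the canonical Wnt pathway, from the kinase that marks beta-catenin for destruction to the DNA-binding factors and corepressors in the nucleus. They were chosen by name, as all probes whose platform gene symbol is one of 10 symbols, and 9 of the 16593 genes named on the array were found, with 19 of its 25697 probes. Tcf7, the remaining symbol, was not analysed here. RNA levels were read on 6 Illumina BeadChips with a single colour, 1 for the biotin-labelled cRNA of each culture of bone marrow cells from C57Bl/6 mice, sorted by the L-S+K+ phenotype (no lineage markers, Sca-1 and Kit on the surface) that holds hematopoietic stem and progenitor cells. All 6 cultures were kept for 24 h in liquid medium that contained fetal calf serum and as growth factors murine stem cell factor together with recombinant murine GM-CSF (granulocyte/macrophage-colony stimulating factor). To 3 of them 1 mM valproic acid (VPA), an inhibitor of histone deacetylases, was added, and 3 controls received the growth factors only. The labels give no age or sex of the mice, and the sorted population is a mixture of stem cells and several kinds of progenitor.

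In the canonical pathway a Wnt protein binds a Frizzled receptor and its co-receptor Lrp5 or Lrp6, and the signal stops the complex of Axin, Apc, casein kinase and Gsk3 from phosphorylating beta-catenin. Beta-catenin then reaches the nucleus and binds a factor of the Tcf/Lef family, whose HMG box recognises a short element with the core CTTTG. Without beta-catenin the same factors bind corepressors of the Tle (Groucho) family, which recruit histone deacetylases. In mouse hematopoiesis Lef1 and the related factor Tcf7 are best known for their part in early lymphoid, above all T cell, development.

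Between 10846 and 11439 probes were detected per array, that is, had a detection p-value under 0.05 against the negative control beads. The median raw signal of the 11115 probes kept for testing (detected on at least 3 arrays) was 3.93 to 4.82 times that of undetected probes on 5 arrays and 2.37 times on VPA replicate 1. Of 12 stem and progenitor cell markers on the array 9 were measured, Cd34, Gata2, Meis1 and Myb among them. The stem cell genes Hlf and Erg were not detected on any array, and no Mecom probe was detected on more than 1 array of either group. Of 15 T cell markers Lat was measured and Cd3d, Cd3e, Cd3g, Cd8a, Cd2, Cd5 and Bcl11b were not detected on any array, after a sort that had removed cells with lineage markers. Cd4 and Cd6 were detected on 1 VPA array and Ptcra on 2, and none of these on a control array.

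Of the 9 genes, 7 were measured through 9 probes, and Lef1 and Tle3 were not. Both Lef1 probes lay at the background on all 6 arrays, with raw signals between 0.887 and 0.997 times the median of undetected probes and detection p-values between 0.486 and 0.858. Lef1 is one of the family members that lymphoid precursors use, and Tcf7, another, was not analysed here. Of 3 Tle3 probes, ILMN_2984872 was detected on VPA replicate 1 and on no other array, and the other two were not detected. An undetected probe gives a bound on the signal of that probe and does not show that the gene was silent. The 10 probes that did not pass the filter had raw signals between 87.5 and 163.6.

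**Figure D1:**
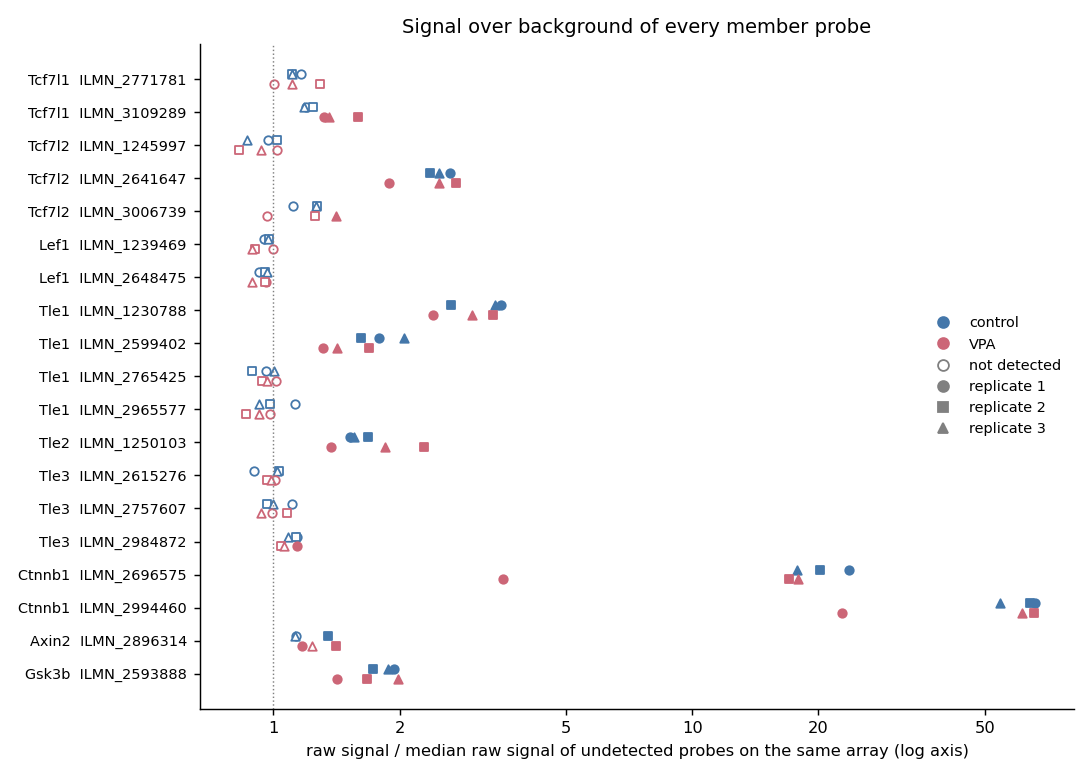
Raw signal of each of the 19 probes divided by the median raw signal of undetected probes on the same array (log axis), for the control (blue) and VPA (red) arrays, with the replicate by marker shape and undetected values open. The Ctnnb1 probes lie far above the background except on VPA replicate 1 for ILMN_2696575 (3.54 times), while Tcf7l1 and Axin2 lie within 1.59 times of it on every array.

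Of the 9 measured probes 0 passed the test for a difference between VPA and control by limma (adjusted p under 0.05, Benjamini-Hochberg over all kept probes), against 3.35% of all kept probes, 2.91% higher and 0.432% lower with VPA. At an unadjusted p under 0.05, 2 probes were higher and 0 lower, against 10.3% of all kept probes higher. In 3 probes all VPA arrays lay above all control arrays, against 14.8% of kept probes, and in 0 below, against 12.2%. These counts include Tcf7l1, which passed the filter only through the VPA arrays, so they cannot be read as a property of the genes. The median log2 change of the 9 probes was 0.33, also with Tcf7l1 at the bound given next, against -0.05 over all kept probes.

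Tcf7l1, formerly called Tcf3, is known as a repressor of Wnt targets in mouse embryonic stem cells. Its probe ILMN_3109289 had normalized log2 signals of 5.19, 5.38 and 5.20 in the controls and 6.69, 6.22 and 5.81 with VPA. Each of the 3 VPA arrays detected it and none of the control arrays did, and the groups did not overlap. Since the control signals were not above background, the difference has a bound only. On this normalized scale the level with VPA was at least 1.57-fold that of control, and it did not pass by limma (adjusted p = 0.0735). The log2 change was 0.38 without background correction and 0.34 in the deposited values, both smaller than that bound. Neither passed by limma (adjusted p = 0.1665 and 0.1818). Without the detection filter, through which the probe came by its VPA arrays alone, the adjusted p was 0.130 by limma. The raw signals, which are not scaled between arrays, overlapped at 139 to 160 in control and 125 to 168 with VPA. There VPA replicate 1 was the lowest of all arrays, while its normalized value was the highest. The bound rests in part on that array and was not computed without it. Over 16 alternatives the adjusted p by limma ran from 0.000338 to 0.292 and was under 0.05 in 5, and none of these passes is read as support, since the probe was kept for its VPA signals. The second Tcf7l1 probe, ILMN_2771781, was not detected on any array, with log2 signals of 5.02 to 5.12 in control and 4.81 to 5.50 with VPA.

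Tcf7l2, formerly Tcf4, is the Tcf factor of the intestinal epithelium in mice. Its probe ILMN_2641647 was detected on every array, with log2 signals of 7.40, 7.33 and 7.41 in control and 7.99, 7.57 and 7.59 with VPA. These normalized VPA values lay above the control values, with VPA replicate 1 the highest. The raw signals, which are not scaled between arrays, overlapped at 264 to 353 in control and 179 to 289 with VPA. There VPA replicate 1 was the lowest. The log2 change of 0.33 ± 0.17 (SE, n = 3 per group; 95% interval -0.05 to 0.72) did not pass by limma (adjusted p = 0.360), and without VPA replicate 1 it was 0.20. Of 2 further Tcf7l2 probes, ILMN_3006739 was detected on VPA replicate 3 and on no other array, and ILMN_1245997 on none.

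Tle2 was the measured Tle gene whose groups did not overlap. Its 1 probe, ILMN_1250103, was detected on all 6 arrays, with log2 signals of 5.98, 6.44 and 6.19 in control and 6.88, 7.15 and 6.83 with VPA. All normalized VPA values exceeded all control values, and the SD was 0.23 in control and 0.17 with VPA. The raw signals, which are not scaled between arrays, overlapped at 188 to 205 in control and 131 to 241 with VPA. There VPA replicate 1 was the lowest. The log2 change was 0.75 ± 0.18, or 1.69-fold (95% interval 0.34 to 1.17), and did not pass by limma (adjusted p = 0.0752). The call appeared in 4 of 17 alternatives, such as the fit without VPA replicate 1 (0.79, adjusted p = 0.0392) and with arrays scaled to one median instead of quantile normalized (0.92, adjusted p = 0.0364) by limma. Without background correction it was 0.35 and in the deposited values 0.30, and neither passed by limma (adjusted p = 0.156 and 0.186).

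Tle1, a corepressor of the same family, was measured by probes that pointed in opposite directions. ILMN_1230788 had log2 signals of 7.97, 7.58 and 8.03 in control and 8.59, 7.96 and 8.01 with VPA, a log2 change of 0.33 ± 0.22 (95% interval -0.19 to 0.85, adjusted p = 0.489 by limma). ILMN_2599402 had 6.44, 6.32 and 6.97 in control and 6.65, 6.40 and 5.98 with VPA, a log2 change of -0.23 ± 0.24 (95% interval -0.79 to 0.34, adjusted p = 0.653 by limma). In both probes the groups overlapped. With 1 array left out the first ranged from 0.13 (without VPA replicate 1) to 0.44 and the second from -0.38 to -0.03 (without control replicate 3). The change of the first exceeded that of the second by 0.55, with p = 0.1 in a two-sided exact permutation test, the smallest value that 3 arrays against 3 can give. A further 2 Tle1 probes were not detected on any array. Of the other Tle genes, taken up after their values were seen, Tle4 (log2 change 0.08 ± 0.16), Tle5, also known as Aes (0.0007 ± 0.22), and Tle6 (0.08 ± 0.19) were detected on all arrays with overlapping groups, and their signs turned in some alternatives.

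Ctnnb1 encodes beta-catenin, both the coactivator of the Tcf factors and a part of cadherin junctions. ILMN_2994460 had log2 signals of 12.67, 12.74 and 12.42 in control and 12.01, 12.77 and 12.93 with VPA. VPA replicate 1 was the lowest of all arrays and VPA replicate 3 the highest. The log2 change of -0.04 ± 0.26 did not pass by limma (95% interval -0.64 to 0.56, adjusted p = 0.945), and without VPA replicate 1 it was 0.24 (adjusted p = 0.340).

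The second Ctnnb1 probe, ILMN_2696575, had log2 signals of 11.13, 11.00 and 10.74 in control and 9.31, 10.75 and 11.09 with VPA. VPA replicate 1, with a raw signal of 336 against 1802 and 2080 on the other VPA arrays, stood apart. The log2 change of -0.57 ± 0.43 had a 95% interval of -1.58 to 0.43 (adjusted p = 0.528 by limma) and was -0.03 without that array. Its difference from the change of the first probe was -0.53, with p = 0.1 in the same two-sided exact permutation test as for Tle1. Adjustment over these 2 probe pairs left both p-values as they were. On VPA replicate 1, the array with the lowest signal over background, both Ctnnb1 probes were below every other array. The part of that array's low signal in these values was not tested.

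Gsk3b, the kinase that phosphorylates beta-catenin in the destruction complex, had log2 signals of 6.67, 6.53 and 6.74 in control and 7.03, 6.37 and 7.03 with VPA (ILMN_2593888). VPA replicate 2 was the lowest of all 6 arrays and the other VPA arrays the highest. The log2 change of 0.16 ± 0.21 (95% interval -0.34 to 0.66) did not pass by limma (adjusted p = 0.719), and it was 0.38 without VPA replicate 2 and 0.05 without VPA replicate 1.

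Axin2 encodes a scaffold of the destruction complex and is itself transcribed in response to Wnt, so that its RNA is widely used as a readout of the pathway. Its probe ILMN_2896314 was detected on control replicate 2 and on VPA replicates 1 and 2, with log2 signals of 5.04, 5.68 and 5.08 in control and 6.00, 5.80 and 5.42 with VPA. The groups overlapped, since control replicate 2 lay above VPA replicate 3. The log2 change of 0.47 ± 0.24 (95% interval -0.08 to 1.03) did not pass by limma (adjusted p = 0.361), and its raw signals of 140 to 151 in control and 111 to 149 with VPA stayed within 1.41 times the background. Since the cultures are bulk samples, fewer cells that express a gene and less RNA per cell cannot be told apart here.

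**Figure D2:**
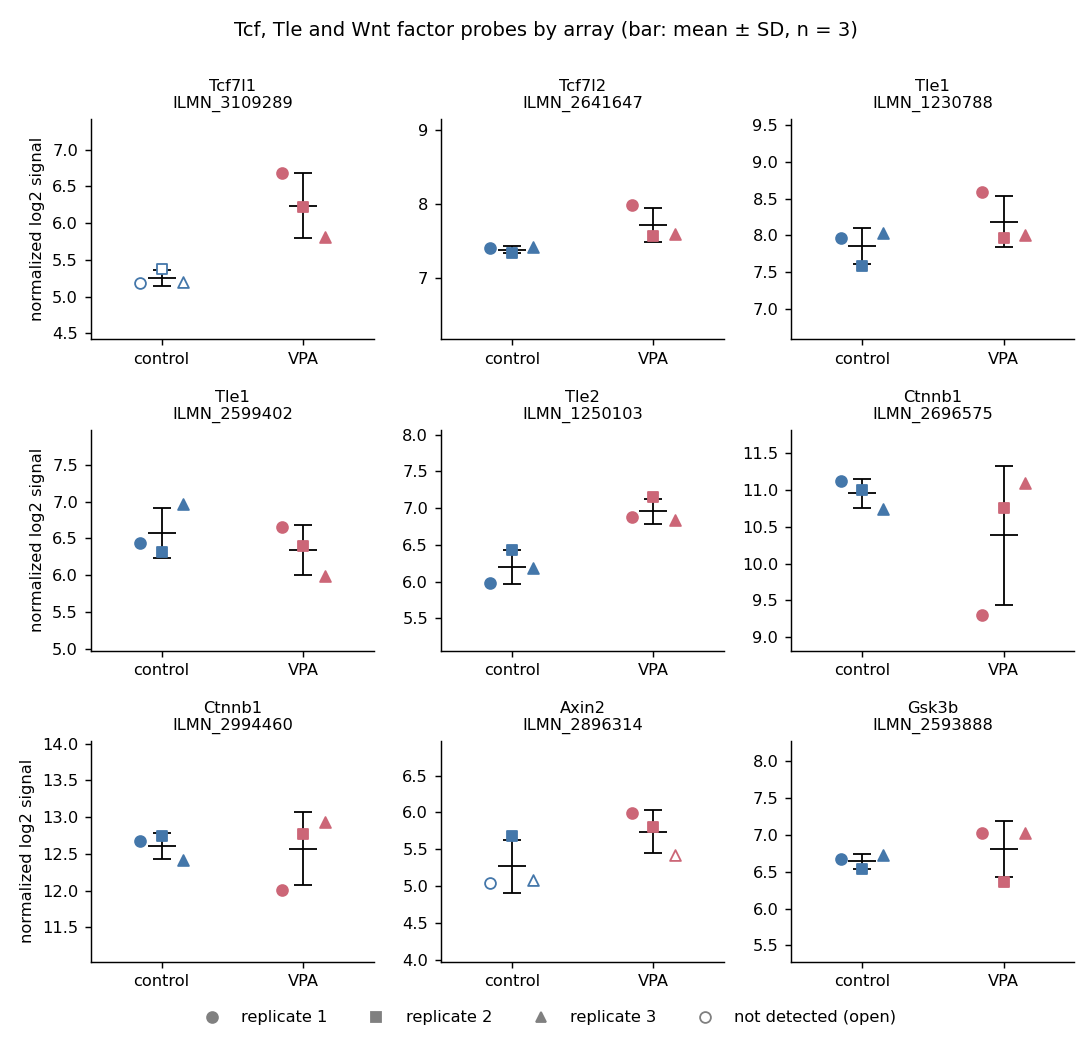
Normalized log2 signal of the 9 measured probes on each array, control in blue and VPA in red, with the replicate by marker shape, undetected values open and bars for mean ± SD (n = 3); every panel spans 3 log2 units. The groups separate for Tcf7l1 (ILMN_3109289), Tcf7l2 and Tle2 and overlap for the other probes, and VPA replicate 1 lies low for both Ctnnb1 probes.

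**Figure D3:**
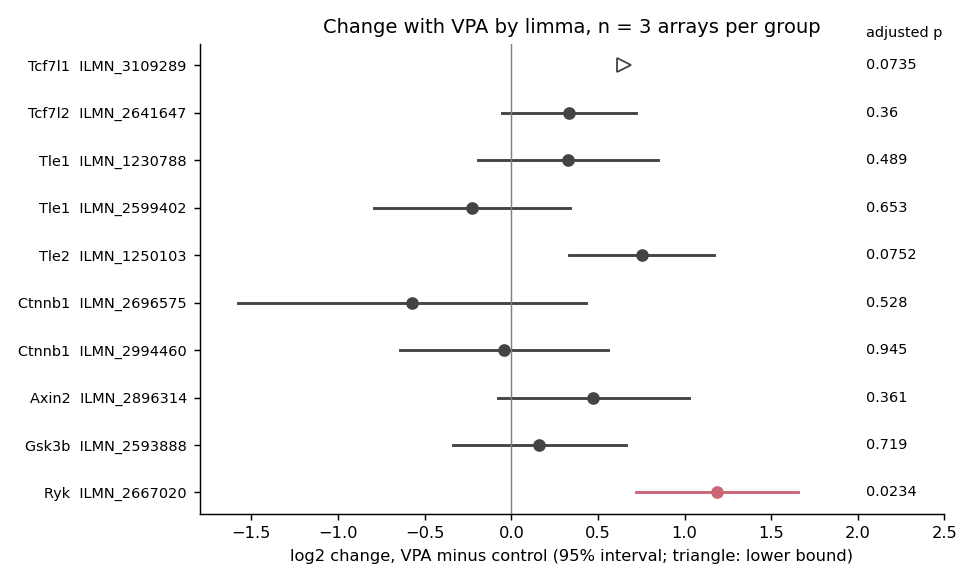
Log2 change with VPA of the 9 probes and of Ryk, a receptor of the same pathway, with 95% intervals and adjusted p-values by limma, and for Tcf7l1 (ILMN_3109289) an open triangle at the bound of 1.57-fold in place of an interval. The interval of Tle2 lies above 0 before adjustment over all probes, and the adjusted p is under 0.05 for Ryk (0.0234) and for none of the 9 probes.

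The windows around the transcription starts of Tcf7l1, Tle2 and Tcf7l2, the factors with a probe whose groups did not overlap, are shown with that of Axin2, the pathway's readout gene. Tcf7l2 has a pair of starts, of which the downstream one holds a Tcf element. Each holds 250 bases before and 50 after a start, 5′ to 3′ on the gene's strand, from RefSeq on GRCm38.p6. Capitals mark GC boxes (GGGCGG on either strand) and the Tcf element (CTTTG followed by a pair of bases that are each A or T, on either strand). Neighbouring GC boxes can overlap.
Tcf7l1: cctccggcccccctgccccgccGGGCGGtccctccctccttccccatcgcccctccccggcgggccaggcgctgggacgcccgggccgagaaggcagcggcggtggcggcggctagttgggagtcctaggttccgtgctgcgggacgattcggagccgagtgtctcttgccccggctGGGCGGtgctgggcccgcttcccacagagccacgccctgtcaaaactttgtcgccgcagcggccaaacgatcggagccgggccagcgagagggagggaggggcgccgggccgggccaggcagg
Tle2: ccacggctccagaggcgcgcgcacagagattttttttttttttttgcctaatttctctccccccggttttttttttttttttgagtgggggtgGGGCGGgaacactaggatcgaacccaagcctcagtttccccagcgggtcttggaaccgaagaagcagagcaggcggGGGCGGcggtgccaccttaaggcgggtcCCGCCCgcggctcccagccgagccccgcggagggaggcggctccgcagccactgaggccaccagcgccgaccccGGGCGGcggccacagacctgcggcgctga
Axin2: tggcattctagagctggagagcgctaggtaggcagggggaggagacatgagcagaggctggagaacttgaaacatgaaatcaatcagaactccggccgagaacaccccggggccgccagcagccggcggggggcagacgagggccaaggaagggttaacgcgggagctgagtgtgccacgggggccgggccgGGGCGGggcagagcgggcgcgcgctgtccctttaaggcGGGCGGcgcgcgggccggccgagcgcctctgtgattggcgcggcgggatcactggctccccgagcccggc
Tcf7l2, upstream start: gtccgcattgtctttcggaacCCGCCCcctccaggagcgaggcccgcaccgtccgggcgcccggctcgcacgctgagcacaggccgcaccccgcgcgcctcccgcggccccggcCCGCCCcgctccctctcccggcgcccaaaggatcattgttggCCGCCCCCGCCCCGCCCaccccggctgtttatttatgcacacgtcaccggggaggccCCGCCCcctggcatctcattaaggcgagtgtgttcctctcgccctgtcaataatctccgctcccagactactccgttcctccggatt
Tcf7l2, downstream start: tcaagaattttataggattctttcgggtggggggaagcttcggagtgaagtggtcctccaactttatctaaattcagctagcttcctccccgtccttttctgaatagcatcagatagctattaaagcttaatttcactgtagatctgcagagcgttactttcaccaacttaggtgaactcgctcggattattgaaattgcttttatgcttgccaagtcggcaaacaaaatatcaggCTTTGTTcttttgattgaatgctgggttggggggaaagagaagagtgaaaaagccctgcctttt

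The Tcf7l1 window lies at chr6:72788996-72789295 on the minus strand and holds 2 GC boxes. The Tle2 window, chr10:81575037-81575336 on the plus strand, holds 4, and that of Axin2, chr11:108920099-108920398 on the plus strand, holds 2. The upstream Tcf7l2 window, chr19:55741560-55741859 on the plus strand, has 6 overlapping or separate GC boxes and a GC content of 70.0%. The downstream one, chr19:55895071-55895370 on the same strand, has 0 GC boxes, a GC content of 42.0% and the Tcf element CTTTGTT that starts 14 bases before the transcription start. Probe positions were not used, so no value here is tied to a start. Of 14 windows of the 9 genes, 10 held a GC box, against 35.7% of all 32851 windows, and 2 held the Tcf element, a Lef1 window and this one, against 16.9%. Their median GC content was 67.3%, against 52.7% over all windows. Several windows belong to the same gene, and a match is a run of letters and not a binding site.

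Around these factors, 142 other genes of the pathway from 7 lists were named on the array and 62 were measured. By limma 1 rose with VPA and 0 fell, against 3.41% and 0.314% of all 7967 measured genes. At an unadjusted p under 0.05, 10 were higher and 4 lower, against 11.5% and 5.59%. The groups did not overlap for 14 higher and 7 lower genes, against 16.7% and 11.2% of all genes. The median log2 change was 0.08 over the 62 genes and -0.02 over all measured genes. Twist1 was detected on VPA arrays alone and passed the filter through them.

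The gene that rose was Ryk, an atypical receptor tyrosine kinase that binds Wnt proteins. The brightest of its probes when all 6 arrays are averaged, ILMN_2667020, had log2 signals of 7.61, 8.18 and 8.07 in control and 9.36, 9.01 and 9.05 with VPA, and all VPA values lay above all control values. Ryk was 2.28-fold higher with VPA (log2 change 1.19 ± 0.20, adjusted p = 0.0234 by limma). A second probe, ILMN_3159826, rose by 1.07 ± 0.19 on the log2 scale (adjusted p = 0.0291 by limma). The third, ILMN_2742420, had 8.28, 8.19 and 8.31 in control and 7.82, 8.15 and 7.91 with VPA, with all VPA values below all control values, and its log2 change of -0.30 ± 0.15 did not pass by limma (adjusted p = 0.361). In the controls ILMN_2742420 was the brighter one, with a mean log2 signal of 8.26 against 7.95, so the rise itself made ILMN_2667020 the probe shown. With the mean of a gene's probes in place of 1 probe 0 pathway genes were higher by limma. The call on ILMN_2667020 was also lost when any array but VPA replicate 1 was left out, with adjusted p of 0.109 (control replicate 1), 0.0756 (control replicate 2), 0.0960 (control replicate 3), 0.0696 (VPA replicate 2) and 0.0530 (VPA replicate 3). Without VPA replicate 1 it held (1.08, adjusted p = 0.0157), and then 5 pathway genes passed.

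Of 18 receptors and co-receptors on the array 5 were measured, and Ryk was the 1 with a call. Of 26 Wnt ligands, R-spondins and secretion factors 1 was measured, Wls, which carries Wnt proteins to the cell surface, with a log2 change of 0.15 ± 0.25 whose sign turned when VPA replicate 3 was left out (-0.0792). Of 15 secreted antagonists and their receptors 3 were measured and 0 passed by limma (unadjusted p under 0.05 in 1 upward and 0 downward). Kremen1 and Kremen2, receptors of the Dickkopf antagonists, had log2 changes of 0.59 ± 0.24 (adjusted p = 0.266) and -0.43 ± 0.35 (adjusted p = 0.557) by limma. Without VPA replicate 1 they were 0.34 and -0.03, and Kremen2 was -0.77 without VPA replicate 3.

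Of 26 genes of the destruction complex and Dishevelled 16 were measured and 0 passed by limma (unadjusted p under 0.05 in 0 upward and 2 downward), with a median log2 change of 0.01. Frat1, which binds Gsk3, was at 0.62 ± 0.35 and Csnk1a1, the casein kinase that primes beta-catenin, at -0.47 ± 0.22 (adjusted p = 0.420 and 0.332 by limma). Both probes lay near the detection limit: Frat1 was detected on 1 control and 2 VPA arrays, Csnk1a1 on 3 control arrays and 1 VPA array. Frat1 was 0.21 without VPA replicate 1 and 0.94 without VPA replicate 3, and Csnk1a1 was -0.31 without control replicate 1. Of 25 nuclear cofactors 23 were measured and 0 passed by limma (unadjusted p under 0.05 in 2 upward and 2 downward; median -0.17). Ctnnbip1, which binds beta-catenin and keeps it from the Tcf factors, had log2 signals of 8.31, 8.55 and 8.49 in control and 9.91, 9.12 and 9.02 with VPA. Its groups did not overlap and its log2 change was 0.90 ± 0.25 (adjusted p = 0.123 by limma), or 0.62 without VPA replicate 1, where it passed (adjusted p = 0.0306 by limma). Tbl1xr1, a subunit of the NCoR corepressor complex, was at -0.79 ± 0.27 (adjusted p = 0.202 by limma).

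Of 28 Wnt target genes 11 were measured and 0 passed by limma (unadjusted p under 0.05 in 3 upward and 0 downward; median 0.26, or 0.22 with Twist1 at its bound). The list was drawn from what is known of other tissues, and whether its genes respond to Wnt in these cells was not tested. Lbh, a transcription cofactor, had log2 signals of 10.01, 10.12 and 9.94 in control and 10.93, 10.59 and 10.68 with VPA. Its log2 change of 0.71 ± 0.16 missed the threshold (adjusted p = 0.0591 by limma), passed without VPA replicate 1 (0.61, adjusted p = 0.0259 by limma) and stood beside a second probe at 0.06 ± 0.37. Gja1, the gap junction protein connexin 43, had 10.66, 10.72 and 10.47 in control and 11.37, 11.24 and 11.17 with VPA. Its log2 change of 0.64 ± 0.15 also missed it (adjusted p = 0.0696 by limma) and passed without VPA replicate 1 (0.59, adjusted p = 0.0368 by limma). The groups of both genes did not overlap. Of 10 catenins and cadherins 3 were measured and 0 passed by limma (unadjusted p under 0.05 in 1 upward and 0 downward): the alpha-catenin relative Ctnnal1 was at 0.69 ± 0.19 (adjusted p = 0.126 by limma) and alpha-catenin itself, Ctnna1, at 0.14 ± 0.16 (0.03 without VPA replicate 1).

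**Figure D4:**
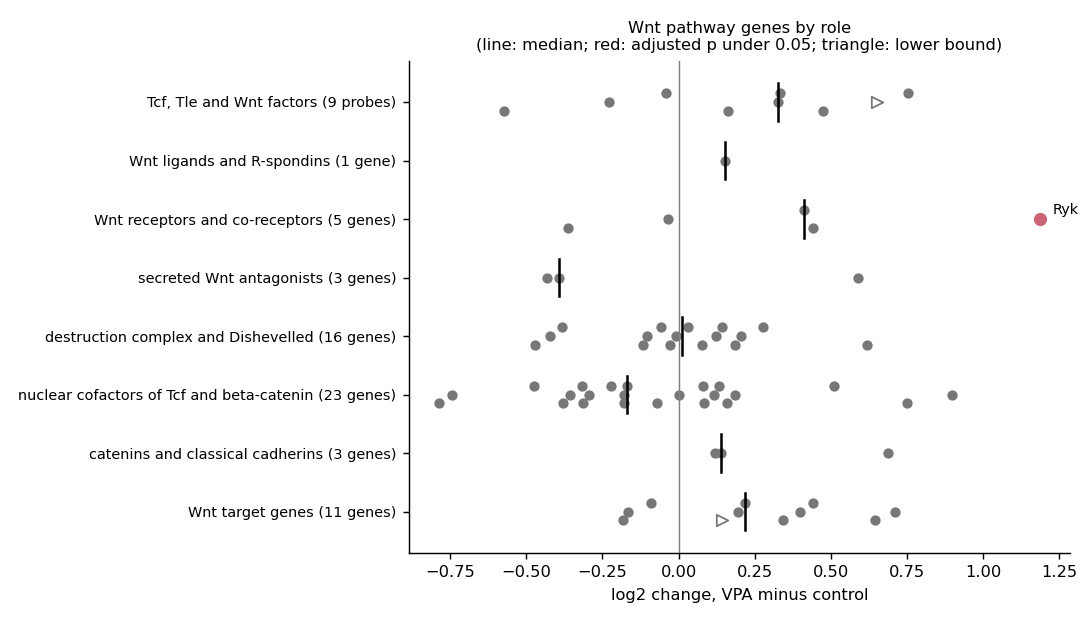
Log2 change with VPA of the 9 probes of the Tcf, Tle and Wnt factors and of the measured genes of 7 pathway lists, each dot a probe or gene, with the median of each list as a line, calls in red and open triangles for Tcf7l1 (ILMN_3109289) and Twist1 at their bounds. Ryk, at 1.19, is the only call among the 62 genes. The list medians lie between -0.39 (secreted antagonists and their receptors, 3 genes) and 0.41 (Wnt receptors, 5 genes).

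Among markers of other cell types, those of lymphoid precursors, cells in which Tcf7 and Lef1 act, held 2 of the 3 calls. Of 8 on the array 6 were measured, and by limma 0 rose and 2 fell, against 3.41% and 0.314% of all measured genes. Dntt, the terminal deoxynucleotidyl transferase, went from 8.15, 7.35 and 7.72 to 5.08, 5.64 and 5.57 (log2 change -2.31 ± 0.25, adjusted p = 0.00524 by limma). In the deposited values the Dntt change was -0.97 (adjusted p = 0.0107 by limma). The interleukin 7 receptor chain gene Il7r went from 7.19, 7.13 and 7.08 to signals that were not detected. On this normalized scale the fall was at least 2.99-fold (adjusted p = 0.00108 by limma). The log2 change of Il7r was -0.81 without background correction and -0.71 in the deposited values, both smaller in size than that bound. Both passed by limma (adjusted p = 0.00623 and 0.00907). Il7r passed the filter through its control arrays alone, so the count of 2 falls cannot be read as a property of the genes. Without the detection filter its adjusted p was 0.00283 by limma. It has 3 probes on the array, and the others did not pass the filter. The other measured genes of the list, Flt3 (log2 change 0.06), Ikzf1 (0.19, with the VPA arrays above the controls), Satb1 (-0.03) and Notch1 (-0.40), did not pass by limma. The summed signal of the 6 measured genes was 4033 to 4408 in control and 3866 to 4127 with VPA. Lef1 was not detected in either group. Of 2 measured macrophage genes Mrc1 fell (-1.66 ± 0.25, adjusted p = 0.0167 by limma), a call that ended when control replicate 1, 2 or 3 was left out (adjusted p = 0.0919, 0.0629 and 0.0817 by limma). In the deposited values the Mrc1 change was -0.68 (adjusted p = 0.0301 by limma). The other, Adgre1, a surface receptor of macrophages, pointed the other way on both of its measured probes (0.78 ± 0.33 and 0.77 ± 0.36, adjusted p = 0.290 and 0.338 by limma) with overlapping groups. The summed signal of both macrophage genes was 223 to 368 in control and 191 to 361 with VPA. By limma 0 of 2 B cell, 0 of 1 T cell, 0 of 9 stem and progenitor, 0 of 9 neutrophil and 0 of 2 endothelial and stromal genes passed. At an unadjusted p under 0.05, 2 of the stem and progenitor genes and Adgre1 were higher, and 4 neutrophil genes, 1 B cell gene and the 3 called genes were lower, against 11.5% and 5.59% of all measured genes. The part of a shift in cell types in the values of the Tcf, Tle and Wnt factors was not tested.

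**Figure D5:**
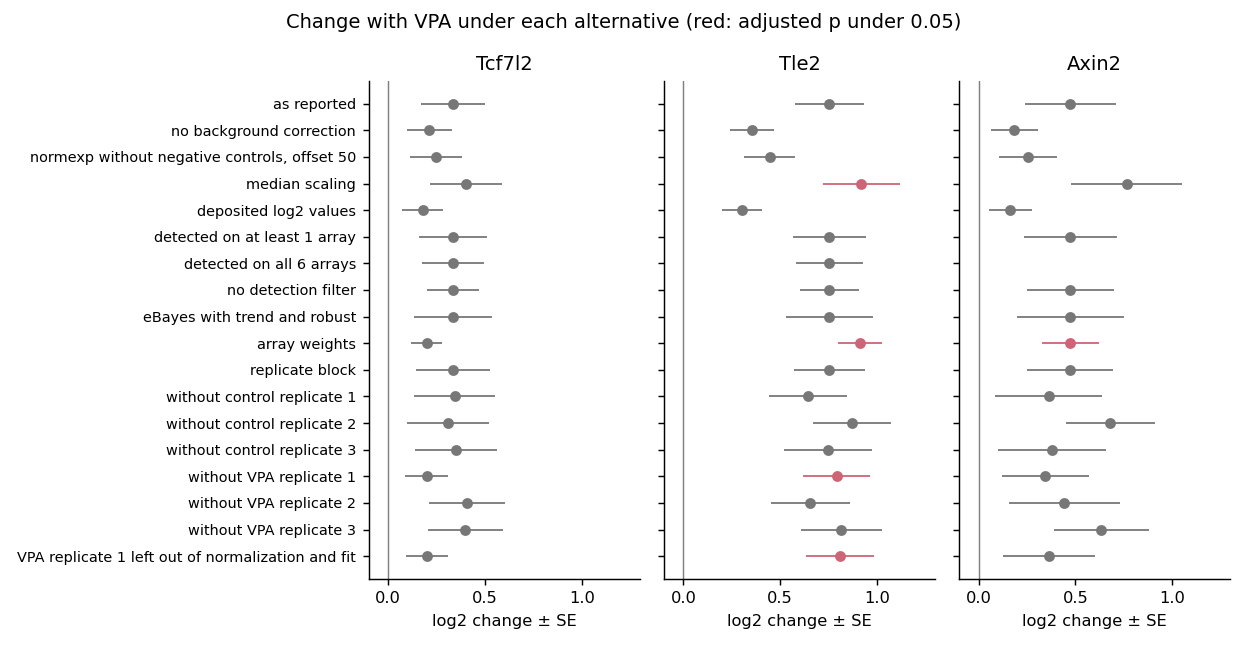
Log2 change with VPA ± SE of Tcf7l2 (ILMN_2641647), Tle2 and Axin2 as reported and under each alternative that gave a value, with adjusted p under 0.05 by limma in red. All values lie above 0, from 0.18 to 0.41 for Tcf7l2, 0.30 to 0.92 for Tle2 and 0.16 to 0.76 for Axin2.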

How the data were processed

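The values used were, per the file headers, unprocessed mean signal intensities of 25697 probes with their detection p-values, as deposited. Per the submitters' processing notes GenomeStudio was used (no version given). The intensities were neither background subtracted nor normalized, judged from the header and the values. The other deposited file gives log2 values for these arrays, with column medians of 6.94 and the rank order of the raw signals. How the authors scaled them is not given in the sources used here, and they served as an alternative only. The function neqc of limma 3.58.1 (R 4.3.3) corrected and normalized the signals (negative controls inferred from the detection p-values, offset 16, quantile normalization, log2). Background subtraction widens log2 changes of dim probes. Probes detected on at least 3 of 6 arrays were kept, 11115 or 43.3%.

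The VPA and control arrays were compared with lmFit and eBayes across all kept probes, with Benjamini-Hochberg adjustment at 0.05 and n = 3 arrays per group. The series design calls the cultures independent biological replicates. A probe undetected on every array of a group has a bound only, computed against the higher of its own signal and the lowest detected signal of each array. Symbols were taken from GEO's annotation of the platform, with a single symbol for 23978 probes, more than 1 for 0 probes and none for the other 1719. Checked by gene ID against RefSeq on GRCm38.p6, 0 symbols changed. A pathway or marker gene is shown by its kept probe with the highest mean. Named genes are every probe of the members, every list gene with a call and, in pathway lists without one, the 2 with the largest change. The members and lists were chosen with earlier results of these data known. The arrays' number limits the precision. The alternatives covered background correction, normalization, the deposited values, detection filters, variance models, a replicate block, each array left out, a stricter threshold and averaging over the probes of a gene.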

Additional observations from a re-analysis of the deposited data

How the results depend on the processing

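The count of 0 higher probes among the Tcf, Tle and Wnt factors became 2 with median scaling, 3 with array weights (whose estimation stopped before it converged) and 2 with VPA replicate 1 left out of normalization and fit. It ranged from 0 to 2 when 1 array was left out. Each of these counts above 0 includes Tcf7l1, kept for its VPA arrays alone, and the count of lower probes was 0 in each alternative run. The 1 higher pathway gene became 3 without background correction, with normexp without negative controls, in the deposited log2 values and with trend and robust variance. It became 14 with array weights (and 8 lower), 5 with VPA replicate 1 left out of normalization and fit, and 0 at adjusted p 0.01 and with the mean of a gene's probes. The range was 0 to 5 with 1 array left out. Correlations of deviations were 0.13, -0.06 and 0.05 between same-numbered arrays and -0.11 to 0.15 between differently numbered ones. With 3 arrays per group these values cannot settle whether the replicate numbers pair the arrays. With the replicate block 0 pathway genes were higher, Ryk having an adjusted p of 0.0564 by limma, and 0 factor probes were called. Over all probes, 324 higher and 48 lower calls became 1734 and 1854 with array weights, 211 and 26 with the replicate block, 92 and 9 at adjusted p 0.01, 585 and 224 with VPA replicate 1 left out of normalization and fit, and 429 and 30 with median scaling, with ranges of 65 to 608 and 7 to 234 when 1 array was left out. Median scaling moved the median of all kept probes from -0.05 to 0.06. Signs turned for Ctnnb1 (ILMN_2994460) with median scaling (0.0739), array weights (0.14) and VPA replicate 1 left out of normalization and fit (0.24), and it ranged from -0.22 to 0.24 with 1 array left out. With array weights they turned for Gsk3b (-0.24), Ctnna1 (-0.0102), Tle4 (-0.0541) and Tle6 (-0.18). With VPA replicate 1 left out of normalization and fit they turned for Tle4 (-0.0239) and Tle6 (-0.0838), and in the deposited values for Tle5 (-0.0011). With 1 array left out Wls ranged from -0.0792 to 0.40, Tle4 from -0.0245 to 0.15, Tle5 from -0.16 to 0.23 and Tle6 from -0.0841 to 0.21. Array weights also called Axin2 (adjusted p = 0.0386 by limma; 0.0386 to 0.691 over its alternatives). The causes of these shifts were not tested. Signal over background limits most of the factors: raw signals of the measured Tcf7l1, Tle2, Axin2 and Gsk3b probes and of Tle1 ILMN_2599402 stayed within 2.29 times the background, and those of Tcf7l2 and Tle1 ILMN_1230788 within 3.50 times.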
